A study of Saccharomyces cerevisiae with 48 samples.

Results

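YIL082W and YIL082W-A are overlapping reading frames of a Ty3 retrotransposon on chromosome IX of budding yeast. YIL082W encodes the Gag protein alone, and YIL082W-A the Gag and Pol proteins together. The selection covered these frames and both frames of the other Ty3 copy, YGR109W-A and YGR109W-B on chromosome VII, where the array carried them. It carried 2 of the 4 frames, YIL082W and YIL082W-A, among 6256 genes, each as 1 probe printed on 2 spots. The frames were chosen on their measured values: their change with alpha factor, their difference between parents and their spread over segregants are therefore given below as a description, with no test.

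Ty3 is a long terminal repeat retrotransposon of the gypsy class, and copies itself through an RNA that is both messenger and genome. Its transcription starts in the long terminal repeat, where binding sites for the pheromone-responsive factor Ste12 make it inducible in haploid cells that sense the opposite mating type. The Gag3 protein packs the RNA into virus-like particles, and Pol3 supplies protease, reverse transcriptase and integrase. The integrase inserts the DNA copy at the start sites of genes transcribed by RNA polymerase III, mostly tRNA genes. In S. cerevisiae Gag3 and Ty3 RNA gather in foci that hold mRNA decay proteins of the P bodies.

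Total RNA of haploid MATa yeast was labelled with Cy3 and hybridised to 48 Agilent 1-colour arrays. The strain label of all samples is YJM789 X S96, a cross whose parental lines in the data were S96 and HS959. All cultures grew in YPAD medium to an optical density of 0.6 and were kept at 30 °C, treated ones with 5 µM alpha factor for 30 min. The 43 segregants were all treated, 1 array each. S96 and HS959 had 1 treated and 1 untreated array each, and an untreated array was also made of segregant SEG8. The labels do not describe the genotype of HS959 further. Each strain had a single array per condition, so the spread within a strain is unknown and the number of arrays limits the precision.

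Array medians of the processed intensity ran from 9804 to 23353, and 94.0% to 99.9% of the gene spots were well above background. The arrays lay on 6 slides, with all parental arrays on slide 1. All 6 MATa markers (STE2, BAR1, MFA1, MFA2, STE6 and ASG7) and all 4 MATalpha markers (STE3, MF(ALPHA)1, MF(ALPHA)2 and SAG1) were well above background on 48 of 48 arrays. Nearly all gene spots were, so detection does not tell the mating types apart. On the log2 scale given below, treated levels ran from 0.77 in MFA1 to 3.47 in ASG7 over the MATa markers. Over the MATalpha markers they ran from -7.89 in STE3 to 1.39 in MF(ALPHA)2. The summed level of markers was not taken, because probes cannot be set against each other. Levels below are log2 processed intensities, averaged over both spots, from which the 75th percentile of that array was subtracted, so a level of 0 is that percentile. RNA came from whole cultures, so fewer expressing cells and less RNA per cell cannot be told apart. With 1 probe per frame, a difference in RNA and a difference in the sequence under the probe cannot be told apart either. RNA of both Ty3 copies may bind these probes, and the share of each copy was not analysed here.

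With alpha factor both frames were far brighter in S96 and in SEG8, and dimmer in HS959. In S96 the level of YIL082W, the Gag frame, was -0.61 without and 3.26 with alpha factor, a 14.6-fold difference. In SEG8 it was -3.24 without and 2.49 with alpha factor, a 53.0-fold difference. In HS959 it was -4.69 without and -6.09 with alpha factor, so the treated array was 2.64-fold dimmer. The treated HS959 array was the dimmest of these 6 and the treated S96 array the brightest. The underlying mean intensities of YIL082W were 17607 and 227460 in S96, 3812 and 184460 in SEG8, and 1096 and 490 in HS959, untreated first. All 6 values were well above background, and no spot of either frame was flagged as saturated or an outlier on any array. The highest raw signal over all arrays was alike in both frames, 239250 in YIL082W and 240160 in YIL082W-A. Whether signals were compressed at this level, below the saturation flag, was not tested.

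YIL082W-A, the Gag-Pol frame, gave the same order of arrays. Its level in S96 was -0.20 without and 3.28 with alpha factor, 11.2-fold apart. In SEG8 it was -2.70 and 2.42, 34.7-fold apart. In HS959 it was -4.28 and -5.74, with the treated array 2.74-fold dimmer. On the log2 scale the changes of YIL082W were 3.86 in S96, 5.73 in SEG8 and -1.40 in HS959, a mean of 2.73 ± 3.70 (SD, n = 3 strains). Those of YIL082W-A were 3.48, 5.12 and -1.45, a mean of 2.38 ± 3.42 (SD, n = 3). The spread between the 3 strains exceeded the mean in both frames, because HS959 changed in the opposite direction.

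**Figure D1:**
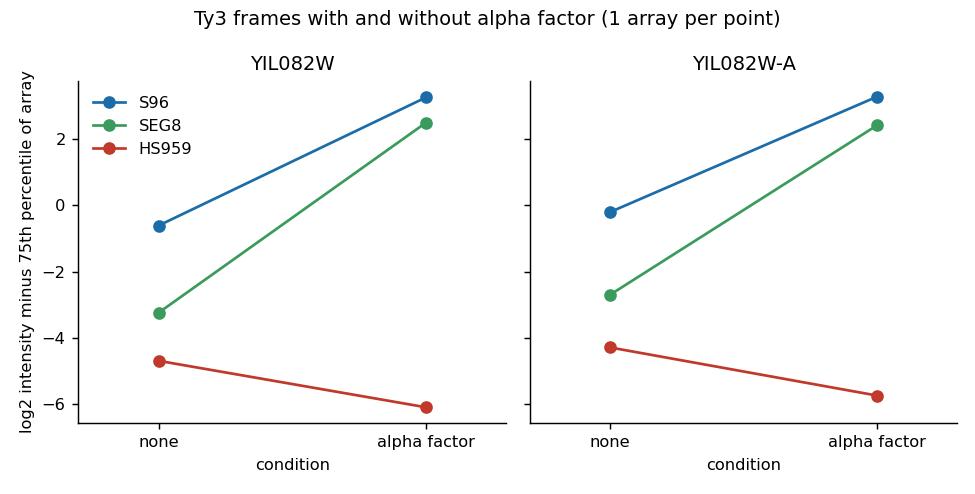
Levels of YIL082W (left) and YIL082W-A (right) without and with alpha factor, on the log2 scale relative to each array's 75th percentile, 1 array per point. Lines join arrays of a strain: treated S96 and SEG8 lie between 2.42 and 3.28, and treated HS959 at -6.09 and -5.74, below its untreated array.

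Set against all genes, the changes in S96 and SEG8 were near the top of the range. In S96, 24 of 6251 genes had a higher change than YIL082W and 31 a higher change than YIL082W-A. In SEG8 these numbers were 12 and 19 of 6251. In HS959, 133 of 6252 genes had a more negative change than YIL082W and 116 than YIL082W-A. SEG8 started lower than S96 and ended close to it. The level of YIL082W in SEG8 minus that in S96 was -2.63 untreated and -0.76 treated, and for YIL082W-A these differences were -2.49 and -0.86. Untreated HS959 lay lower still, with a difference from untreated SEG8 of -1.45 in YIL082W and -1.59 in YIL082W-A.

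The parents differed before treatment, and by far more with it. Untreated HS959 was 16.9-fold dimmer than untreated S96 in either frame, with a difference, HS959 minus S96, of -4.08 on the log2 scale in both YIL082W and YIL082W-A. With alpha factor the difference was -9.34 in YIL082W, or 649-fold, and -9.02 in YIL082W-A, or 519-fold. Among all genes, 20 of 6251 differed more in that direction than YIL082W on the treated arrays and 47 of 6252 on the untreated ones. For YIL082W-A 24 and 46 genes did.

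Genes of the pheromone pathway and of Ty3's host factors were followed in the same 6 arrays with limma, which pairs the arrays of a strain. Over all genes, 15% of 6252 were called higher with alpha factor and 20.5% lower, at a Benjamini-Hochberg adjusted p under 0.05, with a median change of -0.04. All 28 pheromone-induced genes rose, with a median change of 2.70, and 20 were called without SEG8. Their largest changes were those of PRM3, needed for nuclear fusion (8.02 ± 0.70, SD, n = 3, limma adjusted p = 0.000691), PRM6, a potassium transporter (7.64 ± 1.14, adjusted p = 0.00178), and FIG1, needed for calcium influx in mating (6.48 ± 1.52, adjusted p = 0.00396). In HS959, where the Ty3 frames were dimmer with alpha factor, the 28 genes had changes from 0.34 over a median of 2.39 to 7.26, against medians of 3.24 in S96 and 2.67 in SEG8. HS959 had the smallest change of the 3 strains in 24 of the 28 genes, each strain on 1 array per condition, and this difference was not tested. The share of all genes with their smallest change in HS959 is not given here. Over all genes the median change was -0.07 in HS959, -0.05 in S96 and -0.01 in SEG8. FIG1 changed by 4.75 in HS959, 7.10 in S96 and 7.60 in SEG8, and the reporter FUS1, needed for cell fusion, by 3.27, 3.62 and 3.67.

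Of 20 genes for pheromone signalling and for partners of Ste12, several of them also in the first list, 13 rose, 0 fell and 7 did not pass, with a median change of 0.70. The genes shared with the first list all rose, and of the others only STE4, STE18, STE20 and DIG2 did. Without SEG8, 6 of the 20 were called. DIG2, an inhibitor of Ste12, rose by 2.00 ± 0.15 (limma adjusted p = 0.00102). MSG5, a phosphatase of the pheromone kinase Fus3, rose by 1.80 ± 0.29 (adjusted p = 0.00257), and BAR1, the protease that destroys alpha factor, by 1.59 ± 0.33 (adjusted p = 0.00402). STE12, whose product binds the Ty3 terminal repeat, rose by 0.78 ± 0.41 (SD, n = 3, limma adjusted p = 0.0289). Its change was 1.15 in S96, 0.84 in SEG8 and 0.34 in HS959.

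The initiation factors of RNA polymerase III, which Ty3 integrase meets at its target sites, went the other way. Of 9 genes, 7 fell, 0 rose and 2 did not pass, with a median change of -0.33. With quantile or median scaling 5 fell, and with any strain left out at most 2 were called, none of them higher (0 without SEG8, where 4 were lower at an unadjusted p under 0.05 in limma). TFC1 and TFC4, subunits of TFIIIC, changed by -0.70 ± 0.13 (limma adjusted p = 0.00835) and -0.63 ± 0.16 (adjusted p = 0.0121), and BDP1, a subunit of TFIIIB, by -0.37 ± 0.04 (adjusted p = 0.0233), each SD over n = 3 strains. Of 11 mRNA decay and P-body genes, 1 fell, 0 rose and 10 did not pass. It was DCP1, the decapping cofactor, at -0.34 ± 0.14 (SD, n = 3, limma adjusted p = 0.0441), and it was not called with median scaling or with any strain left out.

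Between the parents, 6.67% of 6252 genes were called higher in HS959 and 14% lower by limma over both conditions, with a median difference of -0.09. Of the 28 pheromone-induced genes 1 was lower, CIK1, which serves nuclear fusion (-0.57, limma adjusted p = 0.0376), and it was not called with quantile scaling or without SEG8, where 1 other gene of the list was called higher. Of the 20 signalling genes limma called 0, with 3 higher and 1 lower at an unadjusted p under 0.05. TFC3 and TFC8, both of TFIIIC and of which TFC8 was not called with quantile or median scaling or without SEG8, were lower among the 9 polymerase III factors (-0.78, limma adjusted p = 0.00944, and -0.40, adjusted p = 0.0467). DHH1, an RNA helicase of P bodies, and XRN1, the main cytoplasmic 5′ exonuclease, were lower among the 11 decay genes (-0.88, limma adjusted p = 0.0170, and -0.71, adjusted p = 0.0135).

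The 43 treated segregants fell into separate groups of levels, which were the same for both frames. On the S96 side of the midpoint between the treated parents lay 28 segregants (65.1%), called bright here, and on the HS959 side 15 (34.9%), called dim. Bright levels of YIL082W ran from 2.35 in SEG35 over a median of 2.58 to 3.06 in SEG32, a 1.64-fold range. The mean intensities behind these ends were close, 189890 in SEG35 and 191880 in SEG32. Their levels therefore differed almost wholly through the percentile subtracted on each array, and the range is not a spread of signal. SEG28, at a level of 2.50, had a higher intensity than either, 234820. Dim levels ran from -10.51 in SEG22 over a median of -9.46 to -3.50 in SEG3, a 129-fold range. The midpoint was -1.42, and a gap of 5.85 on the log2 scale with no segregant lay between SEG3 and SEG35.

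For YIL082W-A the bright levels ran from 2.28 in SEG33 over a median of 2.54 to 3.22 in SEG32, and the dim ones from -9.92 in SEG37 over a median of -9.44 to -3.08 in SEG3. The midpoint was -1.23, and the gap around it 5.36. Each of the 43 segregants was on the same side for both frames. The level of treated S96 was above that of every segregant in both frames. Its mean intensity in YIL082W was not the highest, at 227460 against 238190 in SEG12. Treated HS959 was brighter than 14 of the 15 dim segregants, SEG3 being the exception. Of the dim segregants only SEG3 and SEG2 (-8.28 in YIL082W) shared slide 1 with HS959, and the others were on slides 3 to 6. The part of the slide in this comparison was not tested.

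**Figure D2:**
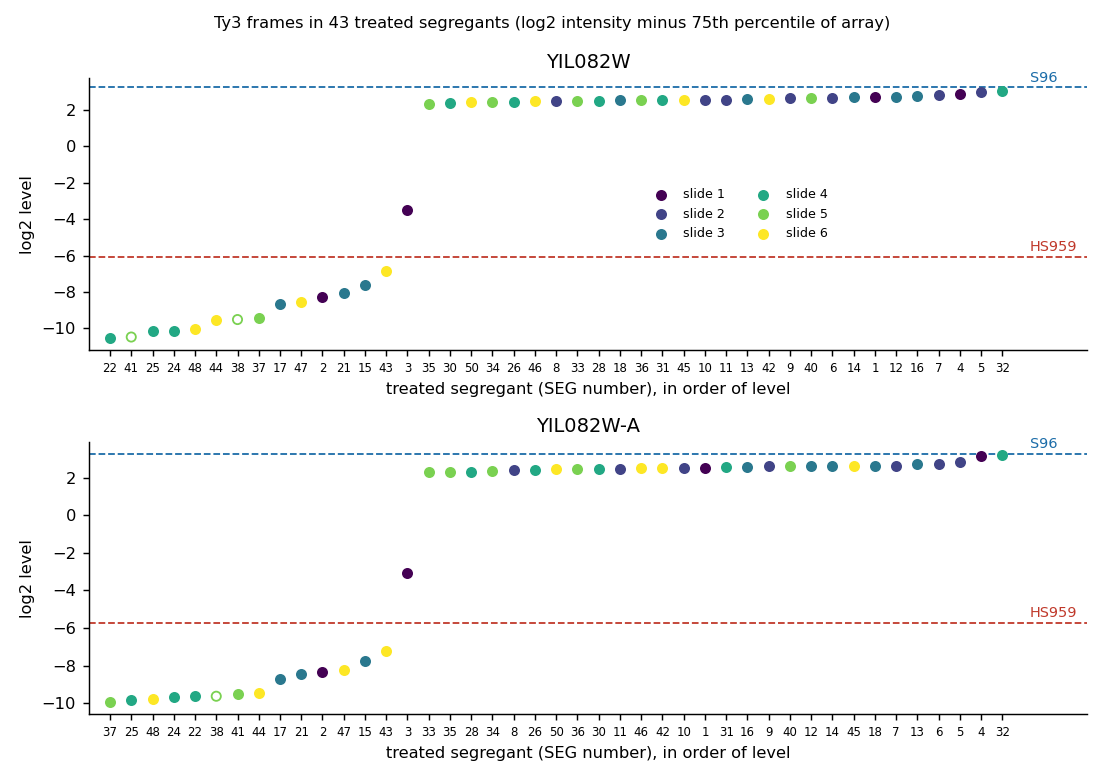
Levels of YIL082W (top) and YIL082W-A (bottom) in the 43 treated segregants, on the log2 scale relative to each array's 75th percentile, in order of level and coloured by slide. Open points were not well above background, and dashed lines mark the treated parents. The 28 bright segregants sit between 2.28 and 3.22, and the 15 dim ones below -3, with SEG3 apart from the others.

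SEG3 lay apart from the other dim segregants. The next highest dim segregant was SEG43, at -6.87 in YIL082W and -7.22 in YIL082W-A. Dim levels also differed in precision: YIL082W in SEG38 and SEG41 and YIL082W-A in SEG38 were not well above background, so these values are only bounds. Some other dim values lay close to the lowest gene signal well above background on their array, such as YIL082W in SEG21 at -8.08 against -8.81. The lower ends of both dim ranges were among them. YIL082W in SEG22 was -10.51 against -11.11, and YIL082W-A in SEG37 -9.92 against -10.20, with 1 of its 2 spots well above background. Among the bright segregants the SD of YIL082W was 0.18 and that of YIL082W-A 0.22, against a median SD of 0.29 over all genes in the same 28 arrays. Of all genes, 16.1% had a smaller SD than YIL082W there and 30.7% a smaller SD than YIL082W-A.

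Duplicate spots of a frame had an SD of 0.113 for YIL082W and 0.0587 for YIL082W-A on the log2 scale, and the furthest pair of spots differed by 0.574. Among the bright segregants the levels of YIL082W and YIL082W-A correlated with a Pearson r of 0.85 and a Spearman rho of 0.81, and among the dim ones with 0.97 and 0.81 (permutation test with 100000 resamples, two-sided, adjusted p = 2.5e-05 for either r over a family of 10 relations). With quantile scaling the r in the bright segregants was 0.46 and did not pass (permutation test, adjusted p = 0.0561). The reading frames overlap, so the probes may bind the same RNA. Both levels also had the same percentile of each array subtracted, and the part of this shared term was not tested beyond the quantile scaling.

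Every slide but slide 2 held both bright and dim segregants. Slide 1 held 2 bright and 2 dim segregants, slides 3, 4 and 5 each held 5 bright and 3 dim, and slide 6 held 4 of each. Slide 2 held 7 bright segregants and 0 dim. Across all 43 segregants a slide effect was called in 48% of 6230 genes by limma's F test. For the frames that test is not read, since they were chosen on their spread over the same arrays. Among the bright segregants alone 34.6% of genes were called, and the frames did not pass (limma F test, adjusted p = 0.292 for YIL082W and 0.285 for YIL082W-A). The bright set was picked on the levels of these same frames, so this outcome is not read as absence of a slide effect. Dim levels of YIL082W did differ by slide in their range, from -10.51 to -10.13 on slide 4 and from -8.66 to -7.62 on slide 3, which do not overlap. The lowest gene signal well above background on the same arrays also differed, from -11.15 to -10.64 on slide 4 and from -9.79 to -8.81 on slide 3. The part of the slide and of this floor in the difference was not tested.

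The genes most like the frames over the 43 segregants, AIM19 and AIR1, lay near them on chromosome IX. Likeness was the number of segregants on the same side of the midpoint of the treated parents as the frame, over the 609 other genes whose treated parents lay at least 1 apart on the log2 scale. It had a median of 22 of 43, and a range of 11 to 36. AIM19 (YIL087C), a mitochondrial protein gene, and AIR1 (YIL079C), encoding an RNA-binding subunit of the TRAMP complex of nuclear RNA surveillance, matched in 36 segregants each. HOP1 (YIL072W), a gene for the meiotic chromosome axis, matched in 33, and YLR317W on chromosome XII and NIT1 (YIL164C), a nitrilase gene near the end of the same arm, in 31 each. These counts had to be identical for both frames, because each segregant was on the same side for both. The third place was not stable: HOP1 matched in 32 with quantile scaling, as did YIL089W, and in 32 with median scaling, below NIP100 at 34. Genes of a chromosome share segregation, so the points are not independent, and no p is given.

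Likeness was lower further along chromosome IX on both sides of the frames. Further out on the side of AIM19 came RSM25, for a mitochondrial ribosome protein, at 26, SDP1, a phosphatase gene, at 29, and the porin gene POR2 and the drug transporter gene QDR1 at 28 each. Beyond HOP1 came YIL054W at 18, YIL032C at 26 and YIL025C at 24. Around the other Ty3 copy on chromosome VII, whose frames were not on the array, the nearest such genes matched less: 23 for the cyclin gene CLB1 on one side and 15 for CLD1, a cardiolipin lipase gene, on the other. CLB1 and CLD1 differed from the frames in largely different segregants. Their counts therefore cannot say which parent's copy of this region a segregant carried. The 10 nearest there ran from 15 to 31, the highest being ECL1 (YGR146C), a life-span gene.

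**Figure D3:**
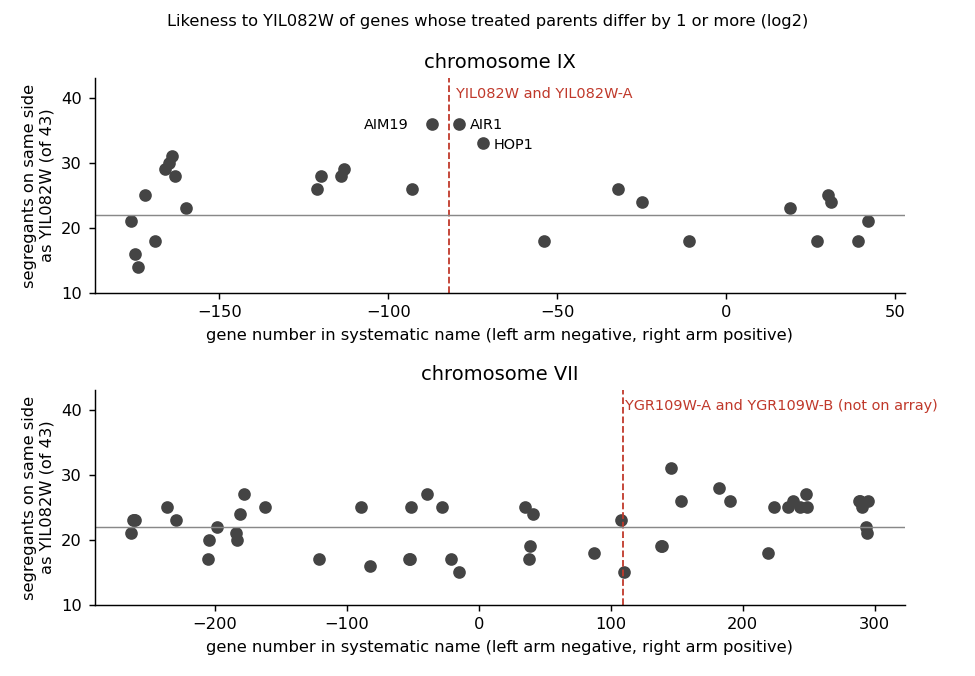
Number of the 43 treated segregants on the same side of the parental midpoint as YIL082W, for genes of chromosomes IX (top) and VII (bottom) whose treated parents lay at least 1 apart on the log2 scale. The horizontal axis is the number in the systematic gene name, with the left arm negative, the dashed line marks the Ty3 copy, and the grey line the median of 22 over 609 genes. AIM19 and AIR1, on either side of the chromosome IX copy, stand highest at 36.

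AIM19 and AIR1 flank the frames, and read together they split the bright segregants. Both were on the S96 side in 22 segregants, and all 22 were bright. Both were on the HS959 side in 19 segregants, of which 13 were dim and 6 bright: SEG7, SEG8, SEG16, SEG28, SEG33 and SEG34. They disagreed in SEG21 and SEG41, both dim, and each call lay near a midpoint. AIR1 in SEG21 was -1.69 against a midpoint of -1.68, and AIM19 in SEG41 was -1.53 against -1.41. With median scaling the flanks disagreed in 1 segregant, and with quantile or median scaling both were on the HS959 side in 20. The same 6 segregants were bright with HS959-like flanks with quantile or median scaling, normexp background or outlier spots kept.

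SEG8, the segregant with the 53.0-fold difference with alpha factor, is among the 6. Levels of YIL082W in the 6 ran from 2.43 over a median of 2.50 to 2.80, inside the range of 2.35 over 2.59 to 3.06 in the 22. Levels of YIL082W-A ran from 2.28 over 2.38 to 2.64 in the 6 and from 2.28 over 2.57 to 3.22 in the 22. The 6 thus overlapped the 22 in both frames, but both sets were picked as bright in these same frames, so the overlap is not a result. AIM19 ran from -1.27 over -0.62 to -0.13 in the 6 and from -2.85 over -2.12 to -1.76 in the 22. AIR1 ran from -1.45 over -1.24 to -0.96 in the 6 and from -3.17 over -2.46 to -1.73 in the 22. That neither flanking gene overlaps between the sets is fixed by how the sets were made.

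**Figure D4:**
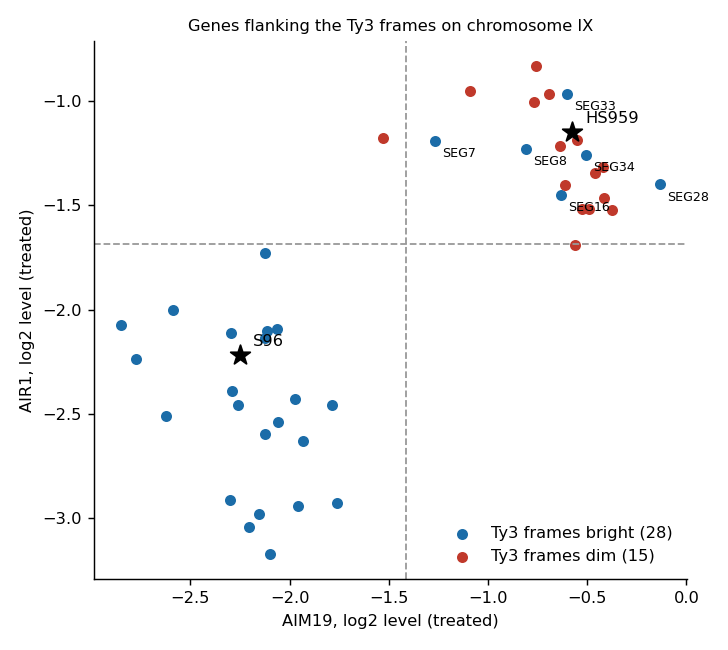
Treated levels of AIM19 and AIR1 (log2, relative to each array's 75th percentile) in the 43 segregants, coloured by whether the Ty3 frames were bright (28) or dim (15). Stars are the treated parents and dashed lines their midpoints. All 22 segregants at the lower left are bright, and the upper right holds 6 bright ones, named, among 13 dim ones.

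The flanking genes were also read in the 6 arrays with and without alpha factor. AIM19 was lower in S96 than in HS959 in both conditions, at -2.01 against -0.89 untreated and -2.25 against -0.58 treated, and SEG8 was near HS959 at -1.12 and -0.81. AIR1 was alike in untreated S96 (-0.79), HS959 (-0.86) and SEG8 (-0.82). With alpha factor it was -2.22 in S96, -1.15 in HS959 and -1.23 in SEG8, a change of -1.43 in S96 against -0.29 and -0.41. AIR1 was thus lowest on the treated S96 array. CAB2 (YIL083C), a gene of coenzyme A synthesis next to the frames that was picked after its values were seen, had changes of 0.88 in S96, -0.04 in HS959 and -0.24 in SEG8. HOP1 was lower in S96 than in HS959 in both conditions, -5.27 against -2.22 untreated and -5.16 against -2.72 treated, with SEG8 at -2.01 and -2.33. These differences rest on 1 array per strain and condition and were not tested.

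Within the bright segregants the scaled levels of the frames correlated with those of the pheromone-induced genes. The same percentile of each array was subtracted from both, so the permutation test cannot tell shared RNA changes from this shared term. The order of levels did not follow that of intensities: YIL082W was 3.06 in SEG32 from 191880, and 2.50 in SEG28 from 234820. The score used was the mean over the 28 listed genes of the level minus its mean over the 43 segregants, and ran from -0.15 to 0.28 in the bright and from -0.26 to 0.21 in the dim segregants. Among the 28 bright segregants it correlated with YIL082W with an r of 0.78 and a rho of 0.66 (permutation test, two-sided, adjusted p = 2.5e-05 and 0.0006), and an r of 0.68 without SEG16 and SEG32, the farthest from its median. With YIL082W-A the r was 0.80 and the rho 0.78 (permutation test, adjusted p = 2.5e-05 and 5e-05), and r was 0.78 without the same 2. On slide 2, the only slide with at least 6 bright segregants, r was 0.91 and 0.77 (n = 7), and with slide means removed it was 0.79 and 0.85 over all 28.

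This relation depended on the scaling of the arrays. With quantile scaling, which gives all arrays the same distribution, r was 0.41 for YIL082W and 0.45 for YIL082W-A (permutation test, adjusted p = 0.0759 and 0.0561), so neither passed. The width of the upper part of each array's distribution, its 99th minus its 75th percentile, ran from 2.59 to 3.25 over the 28 arrays. It correlated with YIL082W with an r of 0.81, with YIL082W-A with an r of 0.89 and with the score with an r of 0.87 (rho 0.77, 0.85 and 0.86, permutation test, adjusted p = 1e-05 in a family of 3, the smallest the permutations can give). Without the 2 arrays farthest from the median these r were 0.70, 0.82 and 0.81. The part of the array distribution in the relation with the score was not tested beyond the quantile scaling.

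**Figure D5:**
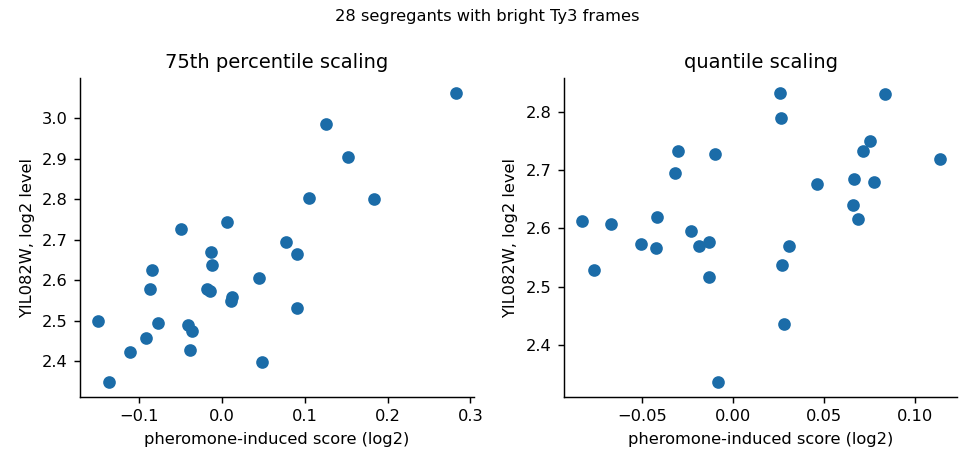
Level of YIL082W against the score of the 28 pheromone-induced genes in the 28 bright segregants, with 75th percentile scaling (left) and quantile scaling (right), both axes on the log2 scale. The r is 0.78 on the left and 0.41 on the right.

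FUS1 alone gave lower correlations, a difference that was not tested. Among the bright segregants its r was 0.39 with YIL082W (rho 0.54, permutation test, adjusted p = 0.0665 and 0.00742) and 0.17 with YIL082W-A (rho 0.28, adjusted p = 0.377 and 0.249). Without SEG40 and SEG45 these r were 0.49 and 0.26. Among the 15 dim segregants neither measure passed. The r of the score was 0.50 with YIL082W and 0.56 with YIL082W-A (rho 0.19 and 0.27, permutation test, adjusted p of r = 0.0882 and 0.0665), and it rested on SEG3 and SEG37, without which it was 0.14 and 0.06. The r of FUS1 among the dim segregants was 0.31 and 0.40 (rho 0.13 and 0.37, permutation test, adjusted p = 0.283 and 0.185).

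No other retrotransposon could be set beside Ty3. The array files and the reference table carry no descriptions by which such frames could be picked, so pairs of frames of the R64 assembly that share an end, a long one of 4000 to 5600 bases and a short one of at most 1500 bases, were looked for instead. None of the 82 frames in 41 such pairs was on the array. Frames outside such pairs, and array genes that R64 lacks, as it lacks YIL082W, could not be found this way.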

How the data were processed

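The deposited scanner files give intensity per spot. Per the file headers, Agilent Feature Extraction 10.5.1.1 (9.1 per the submitters' processing notes) subtracted background and detrended the Cy3 intensity over the array, with no scaling between arrays. The authors' value table held the same intensity in 626304 of 626304 cells. Other columns in the deposited files, per the file headers, are 0 or 1 flags and a control type.

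From 13048 spots per array, 536 control spots and 0 to 97 outlier spots were left out. The log2 intensity minus the array's 75th percentile was averaged over spots. Gene names are the array's; 5756 of 6256 matched the table of assembly R64, which lacks YIL082W. Sequences and coordinates were not used here.

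Alpha factor and parents were fitted with limma 3.58.1 (R 4.3.3) on 6 arrays with strain as a block, over 6252 genes detected (well above background) on 2 or more of the 6 arrays, with 2 residual and 2.61 prior degrees of freedom. The labels pair arrays by strain name, 1 treated and 1 untreated array per strain. They do not name separate cultures. With 1 array per strain and condition, the p-values of both comparisons rest on how far the change with alpha factor differed between the 3 strains. In that spread, array noise and a real difference between strains cannot be told apart. The fit and the permutation test were tested on simulated data. Files were read with pandas 2.3.3 and numpy 2.4.6 in Python 3.11.15, and plots drawn with matplotlib 3.10.9. Named genes were the frames, the 5 genes most like them, up to 5 neighbours on each side of each Ty3 copy with parents at least 1 apart, and up to 3 of each list. Alternatives were quantile and median scaling, normexp background with an offset of 50, the value table, no filter, no block, slide means removed and strains left out. The members and lists were chosen with earlier results of these data known.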

Additional observations from a re-analysis of the deposited data

Results flagged for a closer look

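The frames changed in opposite directions with alpha factor in the parents. The change in S96 minus that in HS959 was 5.27 on the log2 scale for YIL082W and 4.94 for YIL082W-A. Each parent had 1 array per condition, so this difference was not tested. SEG8 had 7.13 and 6.57 more than HS959. No group held 4 to 10 arrays, so single outlying arrays were not looked for within groups.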

How the results depend on the processing

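Both frames kept their directions in each strain, between the parents and over the segregants, with 28 bright and 15 dim segregants, under the scalings, background and value table tried. Quantile scaling gave changes with alpha factor in S96 of 3.31 (YIL082W) and 2.92 (YIL082W-A), in SEG8 of 5.92 and 5.41, and treated parental differences of -8.57 and -8.28. Normexp background gave SDs over segregants of 4.89 and 4.86, against 5.59 and 5.49. Leaving out each strain gave mean changes of 1.23 to 4.80 (YIL082W) and 1.02 to 4.30 (YIL082W-A): the lowest without SEG8, the highest without HS959. Genes called with alpha factor numbered 2220, from 610 (without SEG8) over 827 (without HS959) to 1636 (without S96), and 657 with no replicate block. Genes called between parents numbered 1290, and 738 without SEG8. Quantile scaling turned their split from 417 higher and 873 lower to 705 and 607, and the median difference of all genes from -0.09 to 0.04. Correlations lost under quantile scaling in the bright segregants were YIL082W with the score (0.41, adjusted p = 0.0759), with YIL082W-A (0.46, adjusted p = 0.0561) and YIL082W-A with the score (0.45, adjusted p = 0.0561), all by permutation test. None of the relations that turned sign had passed: under quantile scaling YIL082W-A with FUS1 in the bright segregants (-0.11), and in the dim ones YIL082W with the score (-0.30) and FUS1 (-0.042) and YIL082W-A with the score (-0.24), and with slide means removed YIL082W with FUS1 in the dim ones (-0.15). Median scaling brought YIL082W with FUS1 in the bright segregants past the threshold (0.43, permutation test, adjusted p = 0.0444). The causes were not tested. AIM19 and AIR1 remained the most like genes with quantile and median scaling, normexp background and outlier spots kept. With parents at least 2 apart, which leaves them out, HOP1 was first with 33. Alternatives for other retrotransposons were not run, since the search by shape of frame pairs found none on the array. Slide effects, the correlations between frames, the flank counts, the runs without SEG3 and the array widths were chosen after seeing the data.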
